A study of Mus musculus with 10 samples.

Results

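The genes described here encode the extracellular matrix and the integrins that bind it. They were taken as every probe set whose platform annotation gives a single symbol that starts with Lama, Lamb, Lamc, Itga, Itgb, Mmp or Timp, or with Col or Thbs and a digit, or that equals Fn1, Sparc, Dcn, Bgn, Lum, Vcan, Fbn1, Eln, Nid1 or Spp1. This gave 126 probe sets for 86 genes, out of 12488 probe sets on the array, 10855 of them with 1 symbol. Fbn1 and Spp1 had no such probe set in the table used here, and Itgb1bp1, which encodes a cytoplasmic protein that binds integrin beta 1, entered through its symbol. The measurements were array intensities of total RNA from mouse hepatocytes, 1 array per sample. There were 3 arrays of hypoxic HIF-1alpha null cells, 3 of hypoxic adeno-treated wild-type cells, 2 of normoxic adeno-treated control cells and 2 of normoxic untreated control cells. The labels give no normoxic null group and name no adeno treatment for the null cells. They also give each array a number within its group, N1 to N3 in hypoxia and N1 and N2 in normoxia. The sources used here do not state what a number stands for, which vector was used, how HIF-1alpha was deleted, which genotype the normoxic cells had, how low the oxygen was or for how long, or whether each array came from its own culture. The p-values therefore measure the spread between these arrays, which may be technical.

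The extracellular matrix is the network of secreted proteins around cells. Fibrillar collagens form tension-bearing fibres, type IV collagens and laminins form the sheet-like basement membrane, and small proteoglycans such as decorin sit on the fibres. Integrins are receptors of an alpha and a beta chain that tie matrix to the actin cytoskeleton, matrix metalloproteinases cut matrix proteins, and the TIMP proteins inhibit those enzymes. In liver, most fibrillar collagen is made by stellate cells and fibroblasts, while hepatocytes secrete fibronectin into the plasma. HIF-1alpha is degraded when oxygen is plentiful, and in hypoxia it accumulates and, with a partner protein, switches on genes.

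Of the 126 probe sets, 72 for 53 genes were bright enough to be tested, and the other 54 are described at the end. The deposited intensities were used on a log2 scale after adding 4.7, and every log2 difference and fold below is on that scale. Hepatocyte markers were bright, as the cell label states: albumin (Alb) read between 8038.9 and 13761.2 on the 10 arrays. The targeted gene's transcript was not lower in the cells labelled null: Hif1a 98628_f_at read 1647.1, 1010.5 and 850 on the null arrays numbered 1, 2 and 3, against 961.8, 703.2 and 711.2 on the wild-type arrays (log2 0.52, SE 0.26, adjusted p = 0.999). A second Hif1a probe set, 98629_f_at, was at 0.56. With the sample number as a block in the fit, the adjusted p was 0.188 for the first and 0.0941 for the second. Both read higher in null than in wild-type cells at each number. Where these probes lie relative to the deleted part is not known here, so they do not check the genotype, and null is used below as the label gives it. The 2 hypoxic number 3 arrays stood apart in the 18S ribosomal RNA control probe sets. The 3' one read 8163.3 on the null and 8179.2 on the wild-type number 3 array, against 406.6 to 1497.9 on the other hypoxic arrays and 155.8 to 3287 on the normoxic ones. The ratio of the 3' to the 5' control of 18S was 1.44 on the null and 1.30 on the wild-type number 3 array, and 3.54 to 5.66 on the other 8. For Actb this ratio was lowest on the same 2 arrays, 1.35 and 1.30, but the hypoxic null number 1 array was close at 1.37. The Actb ratio reached 2.96 on the normoxic untreated number 2 array, and the Gapdh ratio lay between 0.802 and 0.962 on all 10.

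**Figure D1:**
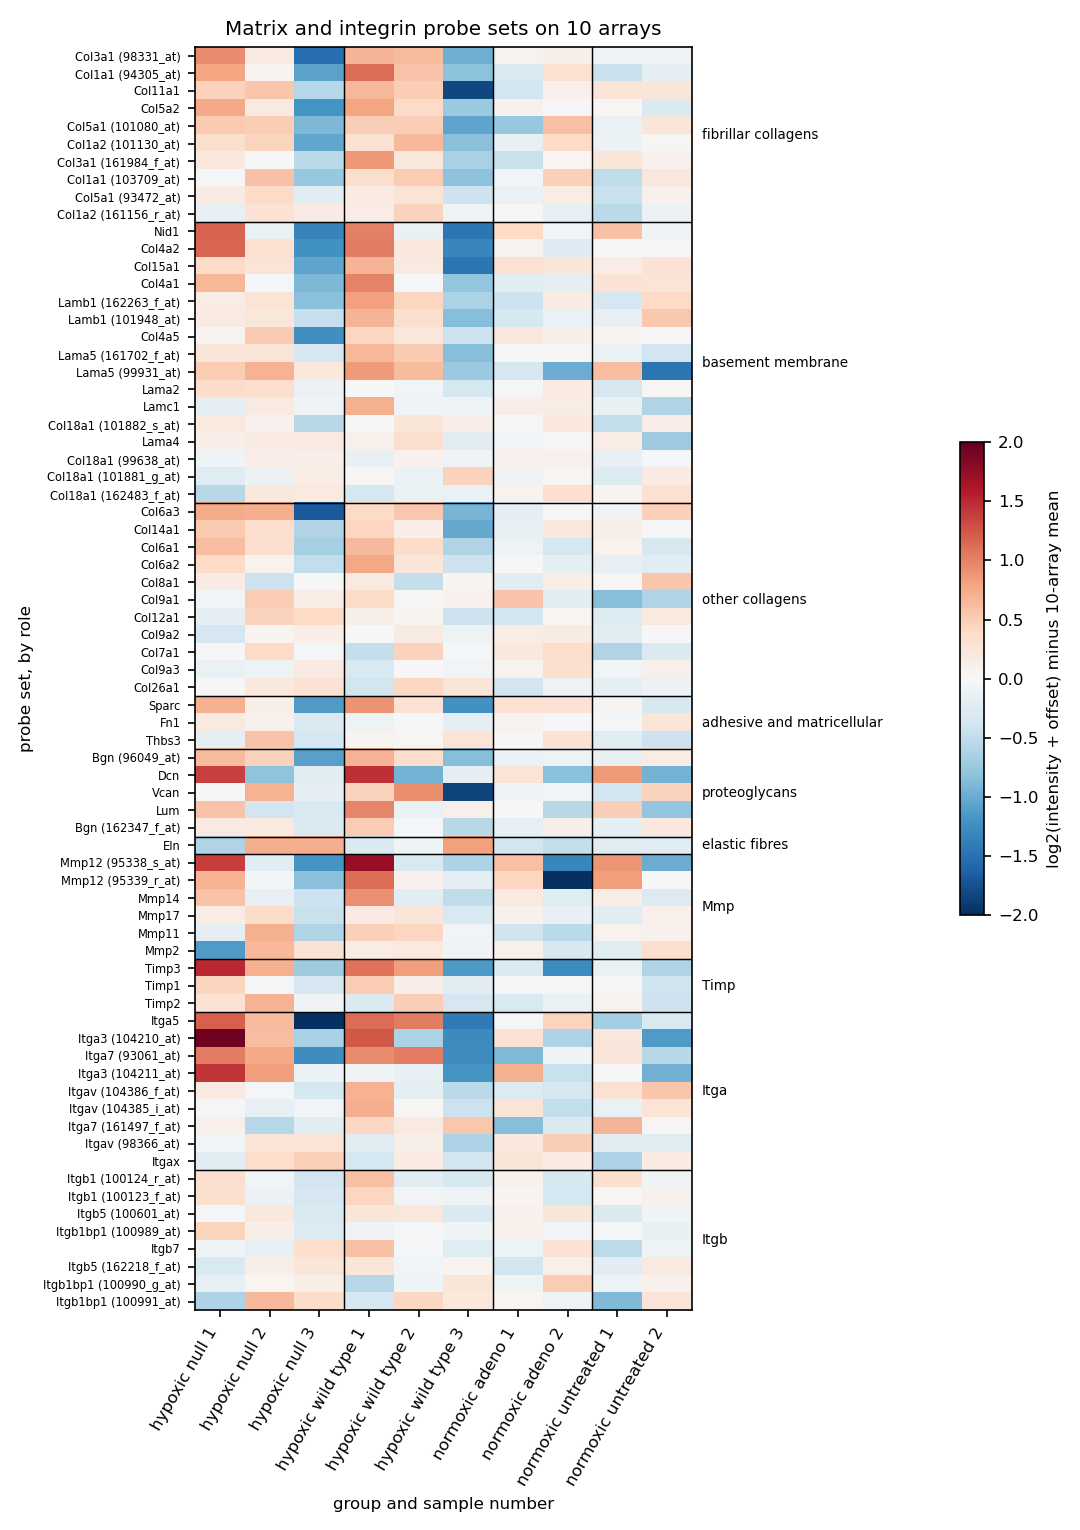
Level of the 72 tested matrix and integrin probe sets on each of the 10 arrays, as log2(intensity + 4.7) minus the mean of the 10 arrays, by role (rows) and group and sample number (columns); colours stop at 2 in either direction. In most fibrillar collagen rows the number 3 arrays of hypoxic null and hypoxic wild-type cells are blue and the number 1 arrays red.

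Most calls among the matrix genes came from comparing sample numbers within hypoxia. On the hypoxic number 3 arrays, 35 of 72 probe sets (28 genes) were lower and 1 was higher than on the hypoxic number 1 arrays, 2 arrays each, 1 of each genotype. The 35 are 48.6% of the members tested, beside 12.5% of all 7453 probe sets called lower in the same fit, and 9.27% of all were called higher. The median log2 difference was -0.79 over the 72 and -0.00 over all. The fall was seen in both genotypes: number 3 was below number 1 in both null and wild-type cells for 49 of 72 probe sets and above it in both for 8. The median was -0.61 in null and -0.89 in wild-type cells. Across the 72 probe sets the null and the wild-type difference correlated at Pearson's r of 0.81, a description of probe sets that share arrays. The error in the fits between numbers comes from how far null and wild-type cells disagree in these differences. Each number held 1 array per genotype, so the p-values between numbers do not measure the spread between repeats of a number. The 2 hypoxic number 3 arrays were the 2 lowest of all 10 for 27 members (37.5%, beside 9.98% of all probe sets), and the 2 hypoxic number 1 arrays the 2 highest for 22 (30.6%, beside 7.37%). Summed over all 126 probe sets, the intensity was 16871.1 on the null and 17192.1 on the wild-type number 3 array, 27618.7 and 28091 on number 2, and 33820.1 and 36772 on number 1, against 23508.6 to 24061.7 on the 4 normoxic arrays. In such bulk RNA, fewer cells of a type and less RNA per cell cannot be told apart.

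The fibrillar collagens, which form the tension-bearing fibres, fell on the number 3 arrays in 8 of 10 probe sets (6 of 6 genes), with a median log2 difference of -1.37. Col1a1, the alpha 1 chain of type I collagen, read 851.9 on the null and 1010.8 on the wild-type number 3 array, 1846.9 and 2643.4 on number 2, and 3086.8 and 3873.2 on number 1. The normoxic arrays read 1439.2 and 2215.3 after adeno treatment and 1306.7 and 1576.5 untreated. The number 3 arrays were thus below every other array and the number 1 arrays above every other. Number 3 lay 3.71-fold below number 1 (log2 -1.89, SE 0.13, adjusted p = 0.000194), and a further Col1a1 probe set, 103709_at, fell by 0.96 (adjusted p = 0.00495). Col5a2, a chain of the type V collagen found within type I fibres, read 313.3 and 429.3 on the null and wild-type number 3 arrays, and 1231.1 and 1251.4 on number 1 (log2 -1.75, SE 0.15, adjusted p = 0.000343). Col3a1 (-2.06 and -1.13 on 2 probe sets), Col11a1 (-1.76), Col5a1 (-1.48 on 101080_at) and Col1a2 (-1.26 on 101130_at) also passed and were chosen for mention after their values were seen. The 2 probe sets that did not pass were Col5a1 93472_at (-0.48, adjusted p = 0.0642) and Col1a2 161156_r_at (0.05, adjusted p = 0.880), so for these 2 genes the probe sets differ in their call.

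Of 16 basement membrane probe sets, 6 for 5 genes fell and 0 were higher in limma. Col4a1 and Col4a2, which encode the common type IV collagen chains, start next to each other on opposite strands of mouse chromosome 8. Their promoter windows, 250 bases before to 50 after the start, are shown because the genes moved together on these arrays; 78 bases are shared between the windows. Capitals mark GCGTG, a core of the hypoxia response element.
Col4a1 (GRCm38.p6, chr8:11312777-11313076, minus strand): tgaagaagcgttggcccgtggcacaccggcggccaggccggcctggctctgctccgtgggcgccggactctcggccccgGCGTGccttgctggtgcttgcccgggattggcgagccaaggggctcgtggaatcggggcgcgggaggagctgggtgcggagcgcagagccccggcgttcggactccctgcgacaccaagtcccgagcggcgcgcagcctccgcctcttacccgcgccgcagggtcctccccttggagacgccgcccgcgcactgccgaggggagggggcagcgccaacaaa
Col4a2 (GRCm38.p6, chr8:11312555-11312854, plus strand): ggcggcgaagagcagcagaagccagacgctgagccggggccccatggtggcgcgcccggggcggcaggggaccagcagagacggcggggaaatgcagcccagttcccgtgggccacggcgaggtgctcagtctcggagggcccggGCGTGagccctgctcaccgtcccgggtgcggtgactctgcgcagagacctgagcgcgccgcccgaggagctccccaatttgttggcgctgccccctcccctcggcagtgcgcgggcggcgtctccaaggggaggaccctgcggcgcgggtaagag
These and the other windows shown are RefSeq sequences. ACGTG and GCGTG, searched on both strands, occur in 19.6% and 32.4% of all 32851 windows of 300 bases, and in 7 and 18 of the 65 windows of 58 member genes. The AP-1 site TGANTCA occurs in 7.8% of all windows and in 8 of the 65. A match of letters is not a bound site.

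Col4a2 read 284.2 on the null and 265.5 on the wild-type number 3 array, 820.8 and 768.8 on number 2, and 1483.2 and 1346.4 on number 1. Its normoxic arrays read 694.0 and 553.1 after adeno treatment and 665.7 and 652.6 untreated. The pairs of equal number nearly coincided, and the normoxic arrays lay between number 3 and number 2. Number 3 was 5.07-fold below number 1 (log2 -2.34, SE 0.13), the smallest adjusted p among the members (0.000152). Col4a1 read 515.9 and 560.5 on number 3 and 1529.9 and 1936.5 on number 1 of null and wild-type cells (log2 -1.67, SE 0.14, adjusted p = 0.000307). Nidogen 1 (Nid1), which links laminin to type IV collagen, fell by 2.48 (SE 0.23), Col15a1 by 1.80 and Lamb1, a laminin beta chain, by 1.22 and 1.07 on 2 probe sets, all chosen after their values were seen. The laminin alpha gene Lama5 did not pass on either probe set (-1.04 and -0.95, adjusted p = 0.0636 and 0.0732). The 4 tested probe sets of Col18a1, whose product carries the endostatin domain, ran from -0.32 to 0.49 and did not pass.

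Among the other collagens 4 of 11 probe sets fell, and the median log2 difference was -0.03. The 3 type VI chains, which form beaded filaments around cells, were among the 4. Col6a3 read 95.1 and 162.1 on the null and wild-type number 3 arrays, 526.1 and 457.2 on number 2 and 530.8 and 412.6 on number 1, against 274.4 to 436.9 on the 4 normoxic arrays. Number 3 was lowest, and number 2 was level with number 1 (log2 number 3 minus number 1 -1.87, SE 0.26, adjusted p = 0.00257). Col6a1 fell by 1.26 (adjusted p = 0.00164) and Col6a2 by 1.04. Col14a1 (-1.29), a collagen bound to fibre surfaces, was the fourth. Type VII and IX collagens lay near 0 (Col7a1 0.21, adjusted p = 0.547; Col9a1 -0.03, adjusted p = 0.952).

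The adhesive glycoproteins split. Sparc (osteonectin), a collagen-binding matricellular protein, read 494.9 and 469.2 on the null and wild-type number 3 arrays, 1189.2 and 1329.2 on number 2, and 1773.7 and 2030.4 on number 1, against 867.5 to 1347.1 on the normoxic arrays. The number 3 arrays were the lowest and the number 1 arrays the highest of the 10 (log2 -1.97, SE 0.13, 3.91-fold, adjusted p = 0.000194). Fn1, fibronectin, read 585.9 and 635.4 on number 3, 764.2 and 719.2 on number 2 and 816.2 and 668.7 on number 1. Its 4 normoxic arrays read 700.5 to 851.1. Number 3 held the lowest values, but the difference from number 1 was small and did not pass (log2 -0.27, SE 0.15, adjusted p = 0.230). Thbs3, a thrombospondin, was at 0.03 (adjusted p = 0.958).

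The small proteoglycans biglycan, decorin and lumican fell, and elastin moved the other way. Bgn read 611.6 and 720.3 on the null and wild-type number 3 arrays, and 2006.7 and 2111.7 on number 1 (log2 -1.63, SE 0.14, adjusted p = 0.000320), and its second probe set fell by 0.77 (adjusted p = 0.0218). Dcn read 123.1 and 126.3 on number 3, 80.3 and 72.5 on number 2 and 378.4 and 404.9 on number 1. In the normoxic cells Dcn read 78.4 on number 2 and 173.2 on number 1 after adeno treatment, and 72.3 and 262.2 untreated. Decorin was lowest on the number 2 array of each of the 4 groups. Number 3 minus number 1 was -1.61 (SE 0.18, adjusted p = 0.000991) and number 2 minus number 1 was -2.29 (SE 0.18, adjusted p = 0.00380). Lum (-0.87), chosen after its values were seen, was also lower on number 3. Versican (Vcan), a large proteoglycan, read 15.7 on the wild-type number 3 array, its lowest of the 10, and did not pass (-1.26, adjusted p = 0.100).

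Elastin (Eln), the core of elastic fibres, was the 1 member higher on number 3. It read 82.3 and 88.2 on the null and wild-type number 3 arrays, 82.4 and 44.8 on number 2, and 29.9 and 38.4 on number 1, against 33.0 to 39.8 on the normoxic arrays. The null number 2 array was as high as number 3 and the wild-type one was not. The difference was 1.22 (SE 0.33, adjusted p = 0.0363). The call ended without the null number 3 array (1.39, adjusted p = 0.111), without the wild-type one (1.05, adjusted p = 0.196) and without the null number 1 array (0.88, adjusted p = 0.180). The second Eln probe set read 0.9 to 8.8 and was too dim to test.

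**Figure D2:**
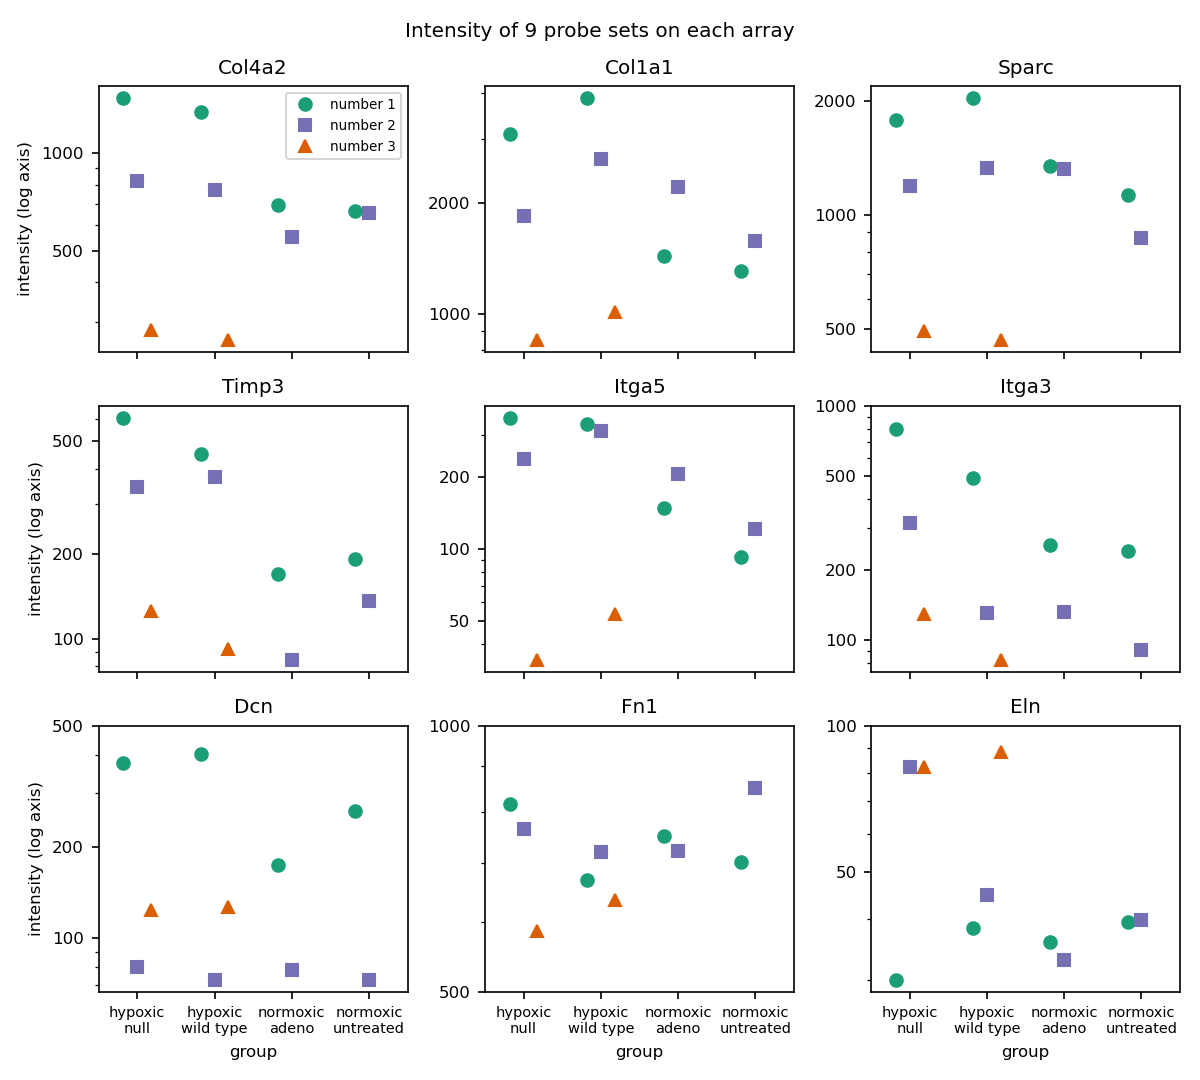
Intensity (log axis) of 9 probe sets on each array, by group, with the sample number as symbol. For Col4a2, Col1a1, Sparc and Itga5 the 2 triangles, number 3 of hypoxic null and hypoxic wild-type cells, lie below every other array, for Dcn the squares of number 2 are lowest in each group, and for Eln the triangles are high.

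Matrix metalloproteinases and their inhibitors fell in part. Mmp12, the macrophage elastase, fell on both of its probe sets (log2 -2.47 on 95338_s_at, SE 0.24, adjusted p = 0.000599, and -1.42 on 95339_r_at). The first read 34.1 and 52.4 on the null and wild-type number 3 arrays, 70.7 and 66.9 on number 2, and 225.4 and 290.7 on number 1. In normoxic cells it read 30.8 on number 2 and 128.6 on number 1 after adeno treatment, and 39.6 and 158.1 untreated, so number 1 was the highest array of each group. Mmp14, a membrane-bound collagenase, read 572.4 and 538.9 on number 3 and 1137.2 and 1439.9 on number 1 of null and wild-type cells (log2 -1.20, SE 0.15, adjusted p = 0.00181). Mmp11 (-0.48, adjusted p = 0.285), Mmp17 and Mmp2 did not pass. The gelatinase probe set Mmp2 161509_at differed between number 3 and number 1 by 1.44 in null cells and by -0.22 in wild-type cells, on the log2 scale.

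Timp3, the inhibitor that binds to the matrix, read 125.0 and 92.0 on the null and wild-type number 3 arrays, 344.6 and 374.4 on number 2, and 603.1 and 448.7 on number 1. Its normoxic arrays read 169.4 and 84.4 after adeno treatment and 191.0 and 136.5 untreated. The hypoxic number 1 and number 2 arrays were above all normoxic ones, and the hypoxic number 3 arrays were among them. The number 3 arrays lay 4.69-fold below number 1 (log2 -2.23, SE 0.19, adjusted p = 0.000341). Timp1 fell less (-0.76, adjusted p = 0.00511), and Timp2 did not pass (-0.19, adjusted p = 0.590).

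Integrin alpha chains fell in 5 of 9 probe sets and beta chains in 2 of 8. Itga5, the alpha chain of the fibronectin receptor, had the largest fall of all members. It read 34.5 on the null and 53.6 on the wild-type number 3 array, 236.8 and 310.2 on number 2, and 352.5 and 332.6 on number 1. Normoxic arrays read 148.1 and 206.1 after adeno treatment and 92.2 and 121.7 untreated, so the number 3 arrays were again below all others. The fold between number 1 and number 3 was 7.26 (log2 -2.86, SE 0.21, adjusted p = 0.000221). Itga3, the alpha chain of a laminin receptor, read 128.9 and 82.2 on number 3, 317.6 and 130.1 on number 2, and 800.5 and 491.2 on number 1 of null and wild-type cells with probe set 104210_at (log2 -2.55, SE 0.20, adjusted p = 0.000280). Its other probe set, 104211_at, fell by 1.33 (adjusted p = 0.00292). The laminin-binding chain gene Itga7 disagreed between probe sets: 93061_at fell by 2.23 (adjusted p = 0.00116), whereas 161497_f_at was at -0.10 (adjusted p = 0.856). Of 3 probe sets of Itgav, the alpha chain of vitronectin receptors, 1 passed (-0.89, adjusted p = 0.0146), and the others were at -0.59 and -0.02. The leukocyte integrin gene Itgax was at 0.34 (adjusted p = 0.402).

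Itgb1, the beta chain that pairs with the alpha 3, alpha 5 and alpha 7 chains, fell on both of its probe sets. Its probe set 100123_f_at read 1671.2 and 2020.1 on the null and wild-type number 3 arrays, 1962.8 and 2050.0 on number 2, and 2631.7 and 2856.0 on number 1, against 1651.6 to 2239.1 on the normoxic arrays. Only the number 1 arrays stood clear of the rest (log2 -0.58, SE 0.12, adjusted p = 0.0147), and 100124_r_at gave -0.81 (adjusted p = 0.00959). Itgb5 (-0.40 and 0.19 on 2 probe sets), Itgb7 (-0.20) and the 3 probe sets of Itgb1bp1 (-0.37, 0.55 and 0.77) did not pass.

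**Figure D3:**
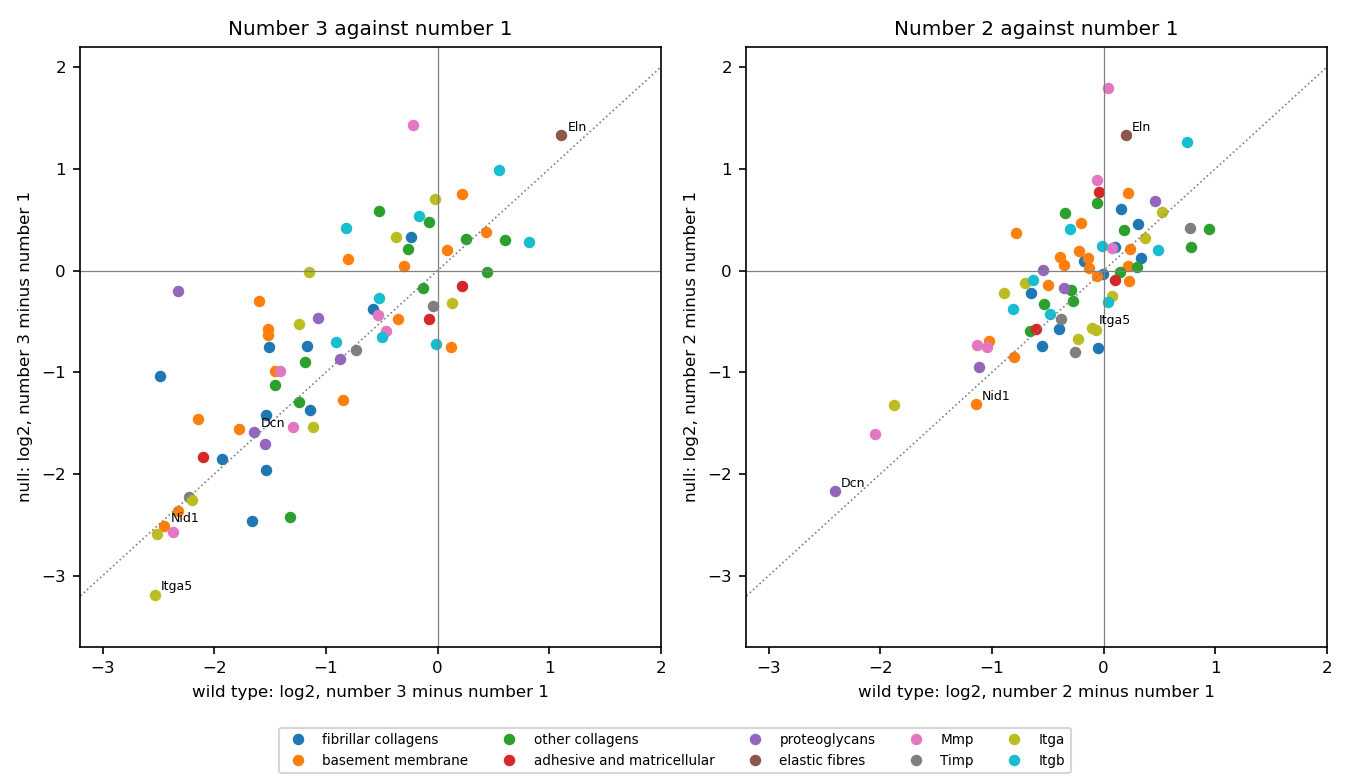
Log2 difference between sample numbers in hypoxic null cells (vertical axis) against that in hypoxic wild-type cells (horizontal axis), 1 point per tested probe set coloured by role, number 3 minus number 1 on the left and number 2 minus number 1 on the right; the dotted line marks equal differences. On the left 49 of 72 points lie below 0 on both axes, on the right 32.

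The hypoxic number 2 arrays lay nearer to number 1. Against number 1, 11 of 72 probe sets for 10 genes were lower (15.3% of members, beside 3.05% of all probe sets), and the median was -0.07. The comparison shares the number 1 arrays with the preceding one. In limma 0 members were higher (3.13% of all probe sets were), with 4 at an unadjusted p under 0.05 (13.1% of all probe sets were). Besides Dcn, the lower ones were Itga3 104210_at (-1.60), Mmp12 (-1.83 and -0.90), Nid1 (-1.23), Lum (-1.03), Mmp14 (-0.93), Col4a1 (-0.86), Col4a2 (-0.83), Col1a1 94305_at (-0.64) and Sparc (-0.59). This count rested on single arrays: it was 0 without the wild-type number 2, 2 without the null number 2 and 3 without the wild-type number 1 array. In normoxia the median of number 2 minus number 1 over the members was 0.02 after adeno treatment and 0.09 untreated. A test of whether that difference depended on oxygen, on the 8 arrays numbered 1 and 2, called 0 members in limma. There were 14 members at an unadjusted p under 0.05 (13.5% of all probe sets were), led by Col1a1 94305_at (-1.09, SE 0.19, adjusted p = 0.0896).

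Markers of other cell types moved with the sample number as well. Between the hypoxic number 3 and number 1 arrays, 12.5% of all 7453 probe sets were called lower and 9.27% higher. Among 19 tested probe sets of stellate cell and fibroblast markers that are not members, 11 were lower on the hypoxic number 3 than number 1 arrays and 0 higher, with a median of -1.27. They include the smooth muscle genes Acta2 (-1.32) and Tagln (-2.20). Their summed intensity was 6822 on the null and 6132.5 on the wild-type number 3 array, 12969.4 and 12058.8 on number 2, and 18915.1 and 17926.9 on number 1, against 11637.5 to 12365.9 in normoxic adeno-treated and 10632.6 to 12516.4 in normoxic untreated cells. Vim, Rgs5 and Ecm1 had no probe set bright enough to test. Of 4 endothelial, 9 macrophage and 5 biliary probe sets 3, 4 and 3 were lower, and of 6 lymphocyte ones 0 in limma, at summed intensities of 800.5 to 1817.4, 966.1 to 1899.6, 957.6 to 4327.5 and 539 to 999.7 in hypoxia and 909.3 to 1437.4, 1008.2 to 1646.4, 545.6 to 1347.2 and 582.4 to 757.9 in normoxia. Hepatocyte markers went the other way: 12 of 26 were higher on number 3 and 0 lower (median 0.52), with sums of 63696.9 to 79414.8 in hypoxic null, 61132.5 to 89802.5 in hypoxic wild-type, 75130.8 to 97292.8 in normoxic adeno-treated and 65769 to 77071.8 in normoxic untreated cells. The part of these markers, and of the 18S values, in the matrix result was not tested.

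Genes that act with the matrix followed in part, beside 12.5% of all probe sets called lower and 9.27% called higher. Of 17 tested probe sets for collagen processing 7 were lower on number 3, among them Serpinh1, the collagen chaperone (-1.34), Lox, the lysyl oxidase that cross-links collagen (-1.87), and P4ha1, a collagen prolyl hydroxylase (-0.84). Focal adhesion genes, which join integrins to actin, were lower in 12 of 23, as in Actn1, an actin-binding alpha-actinin (-3.59, -1.97 and -1.56 on 3 probe sets), Tln1, talin (-1.08), and Ilk, integrin-linked kinase (-1.07). Among 23 probe sets for TGF-beta signalling and proteases 10 were lower, among them Tgfb1 (-2.76), Tgfb3 (-2.33) and the matricellular gene Ccn2 (-2.18). Other matrix proteins were mixed: 5 of 20 were lower, led by tenascin C (Tnc, -2.98) and agrin (Agrn, -2.92), and 2 higher, among them the plasma protein vitronectin (Vtn, 0.58). Of 15 probe sets for other matrix receptors 3 were lower, for Ddr1 and Dag1, and 2 higher, the syndecans Sdc1 (1.03) and Sdc2 (0.64). The 2 higher in each of these last lists and the 3 lower receptor probe sets were near the shares of all probe sets.

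**Figure D4:**
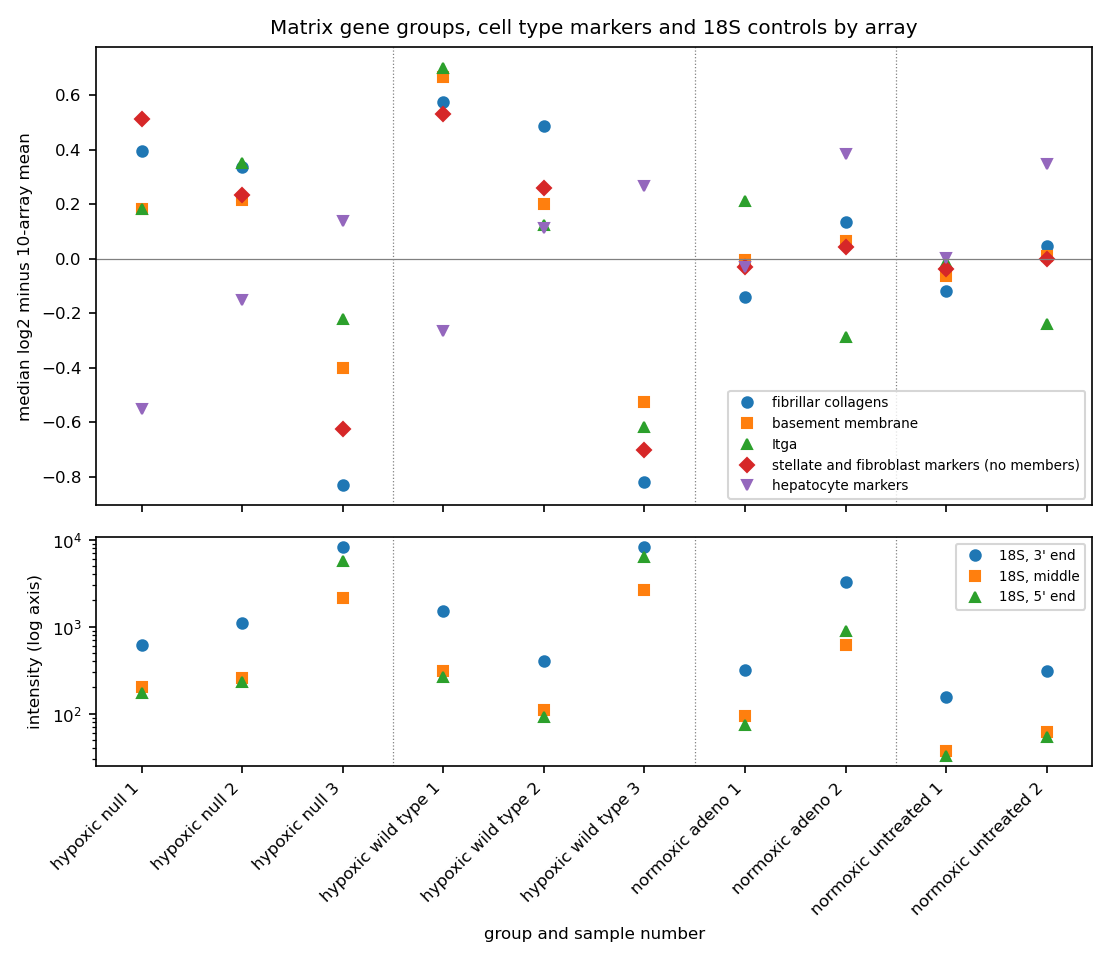
Upper panel, median over tested probe sets of log2(intensity + 4.7) minus the 10-array mean, on each array, for 3 matrix and integrin groups and 2 marker lists; lower panel, intensity (log axis) of 3 control probe sets of 18S ribosomal RNA. Matrix groups and stellate markers are below 0 and hepatocyte markers above 0 on both number 3 arrays, on which the 3' 18S control read 8163.3 and 8179.2.

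How hypoxia changes these genes was read from hypoxic wild-type against normoxic adeno-treated cells. Between group means, 0 of 72 members passed in limma in either direction (0.322% of all probe sets were called higher and 0% lower). At an unadjusted p under 0.05, 1 member was higher and 0 lower, beside 4.47% and 3.46% of all probe sets. The spread between numbers was large: Timp3 averaged 305 ± 188 (SD, n = 3) in hypoxic wild-type and 127 ± 60.1 (SD, n = 2) in normoxic adeno-treated cells (log2 1.03, SE 0.73, adjusted p = 0.792). Itga7 161497_f_at had the smallest p, at 57.8 ± 7.76 (n = 3) and 28.2 ± 8.98 (n = 2) (log2 0.94, SE 0.33, adjusted p = 0.465). The sample numbers tie hypoxic arrays to each other more closely than to normoxic ones. Same-number correlations were 0.542 to 0.678 within hypoxia, and 0.106 to 0.358 in pairs of a hypoxic with a normoxic array. The normoxic groups hold no number 3, so a block by number takes up the level that the 2 hypoxic number 3 arrays share. That shared level then does not enter hypoxic minus normoxic. With the number as a block, 3 members were higher and 0 lower (1.49% of all called higher and 0.738% lower). There were 25 higher and 2 lower at an unadjusted p under 0.05, beside 9.23% and 9.88% of all probe sets. The 3 called were Timp3 (1.69, SE 0.20, adjusted p = 0.00232), Mmp12 95338_s_at (1.15, SE 0.22, adjusted p = 0.0280) and Col6a1 (0.74, SE 0.15, adjusted p = 0.0377). In that fit 58 of 72 members were positive, with a median of 0.29 against -0.00 for all probe sets. Without the block, where the number 3 arrays count in full, 44 of 72 were positive, with a median of 0.08. Timp3 was called alone without any 1 of the 3 wild-type arrays and without all number 3 arrays (0.966% of all called higher there), 2 members were called without the normoxic adeno number 1 array, and 0 without the normoxic adeno number 2 array.

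By number, hypoxic wild type minus normoxic adeno-treated had a median over the members of 0.54 on number 1 (59 of 72 above 0) and of 0.17 on number 2 (51 of 72), against -0.01 and 0.02 over all probe sets. Timp3 differed by 1.38 and 2.09 in these 2 pairs, Mmp12 95338_s_at by 1.15 and 1.01, and Col6a1 by 0.74 and 0.72. The block fit that picked these 3 draws on the same 2 pairs, so their like sign in both is no further support. The second Mmp12 probe set, 95339_r_at, differed by 0.70 and 2.18 and was not called with the block. Normoxic cells hold no number 3 array, so the low hypoxic number 3 arrays have no counterpart there. The promoter windows of Timp3 and Mmp12 are printed because, of the 3 genes that passed with the block in hypoxic cells of both kinds, these had larger differences than the remaining one, Col6a1; capitals mark GCGTG in Timp3 and a match to TGANTCA in Mmp12, for which 2 windows are listed.
Timp3 (GRCm38.p6, chr10:86300162-86300461, plus strand): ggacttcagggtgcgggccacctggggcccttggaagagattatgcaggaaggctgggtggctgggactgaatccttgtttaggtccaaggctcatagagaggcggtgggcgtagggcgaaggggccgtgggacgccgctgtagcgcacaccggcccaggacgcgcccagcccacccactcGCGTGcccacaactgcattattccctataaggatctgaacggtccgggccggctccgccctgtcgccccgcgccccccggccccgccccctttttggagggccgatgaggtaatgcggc
Mmp12 (GRCm38.p6, chr9:7347124-7347423, plus strand): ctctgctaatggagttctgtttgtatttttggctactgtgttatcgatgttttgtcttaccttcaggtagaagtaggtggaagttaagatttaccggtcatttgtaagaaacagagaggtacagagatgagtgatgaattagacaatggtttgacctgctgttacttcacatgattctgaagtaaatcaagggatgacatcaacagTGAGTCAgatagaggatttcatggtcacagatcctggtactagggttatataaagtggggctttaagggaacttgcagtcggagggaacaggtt

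Hypoxic null cells were compared with the same normoxic adeno-treated arrays, so both comparisons share their controls. This one holds genotype and hypoxia together, and also adeno treatment, which the labels do not name for the null cells. Without the block 0 members passed in limma in either direction (0.349% of all probe sets called higher and 0.0805% lower). Then 0 members were at an unadjusted p under 0.05, beside 5.18% of all probe sets higher and 4.56% lower. With the block 7 probe sets of 6 genes were higher and 0 lower (2.95% of all called higher, 2.83% lower). An unadjusted p under 0.05 was reached by 17 higher and 0 lower, beside 11.3% and 11% of all. Timp3 was at 1.93 (SE 0.20, adjusted p = 0.00110), against 1.69 in wild type. Itga3 was at 1.38 (SE 0.22, adjusted p = 0.00884) and 0.98 (SE 0.24, adjusted p = 0.0419) on its 2 probe sets, Itga7 93061_at at 1.39 (adjusted p = 0.0485), Mmp12 95338_s_at at 0.87 (adjusted p = 0.0493), Col4a2 at 0.82 (adjusted p = 0.0370) and Col6a1 at 0.69 (adjusted p = 0.0310). In wild type the same fit gave 0.52 and -0.22 for Itga3, 1.44 for Itga7 93061_at and 0.71 for Col4a2, none of which passed. The 7 became 2 without either normoxic adeno array, 3 without the null number 1 or number 3 array and 1 without the null number 2 array. In the same fit 2 of 19 stellate cell and fibroblast markers were higher in null and 1 in wild-type cells, 2 of 5 biliary markers were higher in each, and 1 of 9 macrophage markers, Cd68, was higher in each (1.54 in null, 1.03 in wild-type cells). Of 4 endothelial and 6 lymphocyte markers 0 were called in limma, and of 26 hepatocyte markers 10 were lower in null and 5 in wild-type cells. Of all probe sets 2.95% were called higher and 2.83% lower in null cells, and 1.49% and 0.738% in wild-type cells. The part of these markers in the matrix values was not tested.

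**Figure D5:**
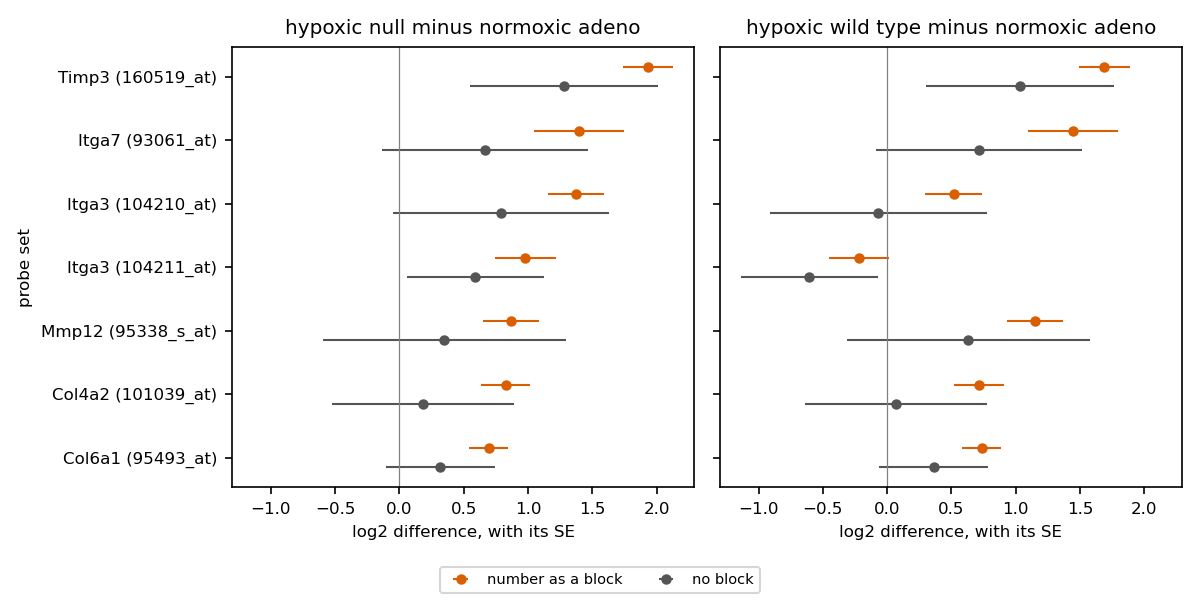
Log2 difference from normoxic adeno-treated cells, with its SE, for the 7 probe sets called with the sample number as a block, in hypoxic null (left) and hypoxic wild-type cells (right), with and without that block. The block narrows the SE, and Timp3 has the largest difference in both panels with the block (1.93 and 1.69).

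Under hypoxia, null and wild-type cells were set against each other to ask what HIF-1alpha contributes. The labels name adeno treatment for the wild-type cells only, so genotype and that treatment cannot be told apart here. In limma 0 of 72 members passed (0% of all probe sets were called in either direction), and the median was -0.05. By number the median was -0.20 on number 1 (47 of 72 below 0), 0.06 on number 2 (40 above 0) and 0.06 on number 3 (41 above 0). Over all probe sets these medians were -0.00, 0.03 and 0.03. Unadjusted, 1 member was higher and 0 lower at p under 0.05, beside 1.69% of all in each direction. With the block 0 members passed as well (0.0134% of all called higher and 0.121% lower). In that fit 2 were higher and 0 lower at an unadjusted p under 0.05, beside 4.7% and 4.59% of all. Both of these 2 were Itga3. Its probe set 104211_at read 534.9, 354.3 and 180.8 on the null arrays numbered 1, 2 and 3, against 184.8, 175.6 and 82.8 on the wild-type arrays, higher in each of the 3 pairs (log2 1.20, SE 0.20, adjusted p = 0.0724 with the block). The probe set 104210_at was also higher in 3 of 3 pairs, by 0.70, 1.26 and 0.62 (0.86 with the block, adjusted p = 0.116). On the normoxic arrays 104211_at read 322.5 and 142.1 after adeno treatment and 194.5 and 98.3 untreated. At equal number, null minus wild type was 0.14, 0.09 and 0.10 for Col4a2 and -0.33, -0.52 and -0.25 for Col1a1 94305_at on numbers 1, 2 and 3, whereas Col6a3 (0.36, 0.20 and -0.74) and Col4a5 (-0.38, 0.29 and -0.80) differed in sign between the pairs.

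Normoxic adeno-treated cells were compared with untreated ones to show the effect of the treatment without hypoxia. In limma 0 of 72 members passed with or without the block (0% of all probe sets called in either direction without it, 0.107% higher and 0.148% lower with it). Without it 2 were higher and 1 lower at an unadjusted p under 0.05, beside 4.15% and 4.17% of all probe sets. With the block 6 were higher and 3 lower at that threshold, beside 8.6% and 9.34% of all. Col9a1, a chain of the type IX collagen of cartilage, read 133.5 and 75.5 in adeno-treated and 46.4 and 56.6 in untreated cells (log2 0.91, SE 0.31, adjusted p = 0.511). Col7a1, the collagen of anchoring fibrils, read 124.7 and 138.2 in adeno-treated and 69.1 and 87.2 in untreated cells (0.72, SE 0.31, adjusted p = 0.567). Itga7 161497_f_at read 21.9 and 34.6 in adeno-treated and 72.1 and 44.2 in untreated cells (-0.92, SE 0.36, adjusted p = 0.548). In these 3 probe sets every adeno-treated array lay on 1 side of both untreated arrays. Mmp12 95339_r_at read 365.4 and 59.4 in adeno-treated and 487.2 and 272.1 in untreated cells (-1.26, adjusted p = 0.119 with the block).

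The 54 probe sets too dim to test read between 0.8 and 94.7, with a median of 10.65, and 33 genes had no brighter probe set. Among them were the leukocyte integrin genes Itgal, Itgam and Itgb2, the collagenases Mmp8 and Mmp13, the gelatinase Mmp9, and Thbs2. Lamb3, a laminin chain of epithelia, reached 94.7 and 55.7 on the null number 2 and number 1 arrays and 51.3 on the wild-type number 1 array with probe set 92759_at. The other hypoxic arrays, null number 3 and wild-type numbers 2 and 3, read at most 13.1 and lay within the 9.1 to 28.9 of the normoxic arrays. The second Lamb3 probe set read 4.7 to 16.4 on the 10 arrays.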

How the data were processed

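The authors deposited 1 table of probe set intensity values on a linear scale, 1 column per array, whose trimmed means (199.559 to 199.955) are alike; the sources used here do not say how the scans became these values. Array medians lay between 60 and 70.9. Probe sets were named from the platform annotation. Of the 126 member IDs 31 carry a letter suffix (f, s, r, g or i), and some of these letters mark probes that may be shared with related transcripts. The 66 control probe sets were left out, 4.7 (the 10th percentile) was added, and log2 values were taken. Probe sets under the 40th percentile of mean log2 (intensity 37.6) were not tested, which left 7453 of 12488. Differences were fitted in R 4.3.3 with limma 3.58.1 (lmFit, eBayes with trend, 2-sided, Benjamini-Hochberg over 7453, threshold 0.05). Groups were fitted on all 10 arrays (6 residual degrees of freedom, 4 with the sample number as a block), and numbers on the 6 hypoxic arrays with genotype as a term (2 degrees of freedom). The labels give the numbers but not their meaning. Deviations from group means correlated at 0.542 to 0.678 in the 3 same-number hypoxic pairs and at 0.106 to 0.379 in the other 10 same-number pairs, against -0.518 to -0.146 in the 6 different-number hypoxic pairs and -0.379 to 0.251 in the 18 other different-number pairs. Deviations within a group sum to 0, and in a group of 2 arrays they are equal and opposite. Many different-number values are therefore same-number values with the sign changed. The contrast of these ranges is partly fixed by construction and is no test of the pairing. On these same data every same-number pair was above 0.1, and the numbers were used as a pairing. It is weak between hypoxia and normoxia: normoxic untreated 2 correlated at 0.251 with hypoxic null 3 and at 0.161 with null 2, and normoxic adeno 2 at 0.186 and 0.131. The precision is limited by the number of arrays. The scripts were tested on simulated data whose noise was independent between arrays. That test does not cover levels shared by arrays of the same number.

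The probe sets named were those called in a comparison of groups with or without the block, the 3 of smallest p in each such comparison, in each role the 2 of smallest p between numbers 3 and 1 and the brightest, and further probe sets of those genes; others are said to be chosen after their values were seen, or complete a count. The members, the gene lists and this rule were chosen with earlier results of these data known. Alternatives changed the offset, filter, normalization, variance trend, control arrays, block and single arrays. Promoter windows come from RefSeq (GRCm38.p6).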

Additional observations from a re-analysis of the deposited data

Results flagged for a closer look

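The 3' control probe set for 18S ribosomal RNA, which enters no comparison of genes, read 8163.3 on the hypoxic null number 3 array and 8179.2 on the hypoxic wild-type number 3 array. The highest of the 4 normoxic arrays read 3287. The same 2 arrays held the lowest values of 27 of the 72 tested matrix and integrin probe sets (37.5%, beside 9.98% of all probe sets tested). The part of the 18S signal in those values was not tested.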

How the results depend on the processing

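The count of members lower on hypoxic number 3 than number 1 arrays (35) ran from 27 with a filter at the 60th percentile to 37 with no filter, and from 24 (without the wild-type number 3 array) to 36 with 1 array left out. The count higher (1, Eln) was 0 with no filter, 3 with quantile normalization and 0 to 2 with 1 array left out. For number 2 against number 1, the 11 lower became 6 with no filter, 4 with no variance trend and 0 to 8 with 1 array left out, and the 0 higher became 1 with 4 times the offset or with all 10 arrays and the replicate block. The sample number as a replicate block moved the count higher in hypoxic null than normoxic adeno-treated cells to 7, and in hypoxic wild type to 3, both 0 without it; other calls between groups stayed at 0 with all arrays. Chosen after seeing the data, the block gave 7 and 6 with all 4 normoxic arrays as control, 3 and 1 without the number 3 arrays, and 5 and 4 after quantile normalization. With 1 array left out, with or without the block, these 2 counts ran from 0 to 3 and from 0 to 2. Lower members in adeno-treated against untreated normoxic cells ran from 0 to 1, the 1 being Mmp12 95339_r_at with the block and without the normoxic adeno number 1 array. A group left with 1 array is assumed to vary like the others. Probe sets that read near the offset of 4.7 have understated folds, normoxic groups hold 2 arrays, and no number 3 array exists there to pair with the hypoxic ones.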

Other observations

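With the sample number as a block, some genes that act with the matrix also passed between hypoxic and normoxic adeno-treated cells. Higher in null cells were 6 of 23 TGF-beta and protease probe sets and 3 of 23 for focal adhesion. For other matrix proteins it was 2 of 20 and for collagen processing 0 of 17, beside 2.95% of all. In wild type the higher counts were 1, 1, 0 and 3 in this order, beside 1.49% of all. Of 15 other receptor probe sets 1 was lower in null cells (2.83% of all). The genes named below are part of those called. In hypoxic null cells the plasminogen activator Plat (1.31, adjusted p = 0.00453) and the urokinase receptor Plaur (1.49, adjusted p = 0.00388) were higher, as was tenascin C (Tnc, 0.78), and the syndecan Sdc2 was lower (-1.08, adjusted p = 0.00371). In hypoxic wild-type cells Lox was higher (1.02, adjusted p = 0.0234), and so was P4ha2, a collagen prolyl hydroxylase, on 2 probe sets (1.12 and 0.75). Both comparisons share their normoxic arrays. Set directly against wild type in hypoxia, with the block, null cells had lower Sdc2 (-0.97, adjusted p = 0.0330, and 0.551 without the block). The others did not pass there: Plaur was at 0.90 (adjusted p = 0.0790), Plat at 0.65 (0.171), Tnc at 0.15 (0.832), Lox at -0.44 (0.374) and P4ha2 at -0.70 and -0.54 (0.0756 and 0.305).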
